A study of Mus musculus with 15 samples.

Results

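The RasGRP exchange factors are encoded by 4 mouse genes, Rasgrp1, Rasgrp2, Rasgrp3 and Rasgrp4, and were picked out of a table of 27179 genes by Entrez ID (19419, 19395, 240168 and 233046). The family was chosen with its measured levels in these same conditions already known, so its own levels, shares and fold changes are given as a description, with no test. The table holds RNA-seq counts of 15 mouse CD4 T cell libraries, 5 labelled Th1 (T helper 1), 5 Th17 (T helper 17) and 5 Tfh (T follicular helper). Naive CD4 T cells were stimulated for 3.5 days with antibodies against CD3 and CD28 fixed to the plate, under differentiation conditions whose cytokines no source used here names. All 3 groups carry the genotype B6.Cg-Ifngtm3.1Lky-Il17atm1.1Lky, that is, altered alleles of both Ifng and Il17a. No group here is therefore an unaltered control for these cytokine genes. The Th1 cells were sorted as IFNg+ and the Tfh cells as CXCR5+ and negative for IL-17A, while no source used here gives the gate of the Th17 cells. No label says that the 5 replicates of a condition came from separate mice or cultures, so the spread between them may be technical.

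RasGRP proteins switch on small GTPases of the Ras family by exchanging bound GDP for GTP. A T cell receptor signal activates phospholipase C gamma, which makes diacylglycerol. Diacylglycerol recruits RasGRP1 to the membrane through its C1 domain, upstream of the Raf-MEK-ERK kinase cascade. RasGRP1 is the member best known in T cells, RasGRP2 (CalDAG-GEFI) acts mainly on Rap1 and is known from platelets, RasGRP3 is known from B cells, and RasGRP4 was described in mast cells.

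Library totals ran from 4871468 counts (Tfh replicate 1) to 25200382 counts (Th1 replicate 3), and 12591 genes passed the filter on low counts, all 4 RasGRP genes among them. Tfh replicate 1, the shallowest library, stood apart from the other Tfh libraries on the second principal component (94.0 against -0.98 to 12.1), so the Tfh differences it moved most are also given without it. Libraries of the same condition differed in how their counts related to transcript GC content. The rank correlation of a library's deviation with GC ran from -0.64 to 0.69 among the Th1 libraries, from -0.50 to 0.69 among the Th17 libraries and from -0.44 to 0.55 among the Tfh libraries. The cells carried T cell markers: the summed level of Cd3e, Cd3d, Cd3g, Cd4 and Trac was 2228 to 3276 CPM (counts per 1000000, on scaled library sizes) in Th1, 3686 to 4359 CPM in Th17 and 4132 to 6063 CPM in Tfh.

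The 4 genes lie on 4 chromosomes of GRCm38.p6. Rasgrp1 spans chr2:117279983-117342877, Rasgrp2 chr19:6398957-6415216, Rasgrp3 chr17:75435870-75529054 and Rasgrp4 chr7:29134607-29153961. The promoters of Rasgrp1 and Rasgrp3 are shown because their levels ran in opposite directions between Th1 and the other conditions. Each line is the 250 bases before an annotated transcription start (RefSeq, GRCm38.p6), 5′ to 3′ on the gene's strand, with motif matches in capitals. Rasgrp3 has 2 annotated starts in that table.
Rasgrp1 chr2:117342878-117343127 (minus strand): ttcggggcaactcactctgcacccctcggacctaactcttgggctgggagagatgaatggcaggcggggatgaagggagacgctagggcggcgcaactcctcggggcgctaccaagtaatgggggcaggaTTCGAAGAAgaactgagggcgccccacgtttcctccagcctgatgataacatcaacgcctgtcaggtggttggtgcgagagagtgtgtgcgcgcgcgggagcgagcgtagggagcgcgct
Rasgrp3 chr17:75435655-75435904 (plus strand, upstream start): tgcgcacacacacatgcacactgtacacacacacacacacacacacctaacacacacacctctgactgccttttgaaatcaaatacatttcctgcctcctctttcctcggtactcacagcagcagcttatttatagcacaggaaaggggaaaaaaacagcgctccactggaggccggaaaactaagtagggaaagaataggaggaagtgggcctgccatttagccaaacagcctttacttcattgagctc
Rasgrp3 chr17:75465288-75465537 (plus strand, downstream start): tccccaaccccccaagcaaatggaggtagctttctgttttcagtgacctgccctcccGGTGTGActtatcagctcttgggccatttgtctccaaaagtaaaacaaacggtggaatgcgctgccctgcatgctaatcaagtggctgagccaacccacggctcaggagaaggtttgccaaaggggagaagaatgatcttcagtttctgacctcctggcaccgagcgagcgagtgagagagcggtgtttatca
The capitals in the Rasgrp1 line are a match to the STAT motif TTCNNNGAA, 120 bases before the start, and those in the downstream Rasgrp3 line are a match to the T-box half-site GGTGTGA, 193 bases before the start. Both strands were searched for these and for a Maf half-site (TGCTGAC), AP-1 (TGANTCA), Runx (TGTGGT) and ETS (CCGGAAG) motif, and the upstream Rasgrp3 line held none of the 6. Of 32851 promoters of this length, 7.02% held the STAT motif, 3.33% the T-box half-site, 3.81% the Maf half-site, 6.75% the AP-1 motif, 14.0% the Runx motif and 6.91% the ETS motif. The Rasgrp1 promoter was 62.4% GC with 21 CpG dinucleotides, against medians of 52.4% and 6 over all promoters. The Rasgrp3 promoters were 47.6% GC with 4 CpG (upstream) and 52.8% GC with 8 CpG (downstream). A match is a run of letters and does not show that a factor binds there. The Rasgrp2 promoters were 79.6% and 67.2% GC, and the second held an ETS match 184 bases and a Maf half-site match 11 bases before its start.

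Per kilobase of exon, Rasgrp1 was the most abundant RasGRP transcript in every library, and its level was highest in Th1. Its level in the 5 Th1 libraries was 332, 334, 315, 294 and 291 CPM, a mean of 313 ± 20.4 CPM (SD, n = 5). In the Th17 libraries it was 65.6, 80.4, 66.1, 54.7 and 56.6 CPM (64.7 ± 10.2), and in the Tfh libraries 64.0, 145, 112, 105 and 99.1 CPM (105 ± 29.2). Every Th1 library lay far above every Th17 and Tfh library, and the Tfh libraries lay above all Th17 libraries except for Tfh replicate 1, at 64.0 CPM. Rasgrp1 was 4.84-fold lower in Th17 than in Th1 (log2 fold change -2.28 ± 0.18, SE) and 2.98-fold lower in Tfh than in Th1 (-1.57 ± 0.17). Between Tfh and Th17 the ranges overlapped, with Tfh 1.63-fold higher (log2 fold change 0.70 ± 0.17, and 0.83 without Tfh replicate 1). In bulk libraries, fewer cells that hold a transcript and less of it per cell cannot be told apart.

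Rasgrp3, unlike Rasgrp1, was lowest in Th1, with no count in any Th1 library. The 5 Th1 libraries held 0 counts of Rasgrp3 among 65565941 counts of all genes, where 3 counts over the group would be 0.0471 CPM. Its level was 14.9, 8.26, 9.60, 7.44 and 11.0 CPM in the Th17 libraries (10.2 ± 2.92, from 523 counts) and 37.5, 4.66, 19.7, 8.56 and 22.4 CPM in the Tfh libraries (18.6 ± 12.9, from 781 counts). Th17 was therefore at least 214-fold higher than Th1 (a log2 fold change of at least 7.74) and Tfh at least 371-fold higher (at least 8.54, or 8.30 without Tfh replicate 1), each against 3 counts over the 5 Th1 libraries. These limits pool the libraries of the higher condition and leave out the spread between them, which in Tfh ran from 4.66 to 37.5 CPM. They also follow the depth of the deepest Th1 library: without Th1 replicate 3 they were 7.05 and 7.85 on the log2 scale. Rasgrp3 passed the filter on low counts through its Th17 and Tfh libraries, so its difference from Th1 follows in part from the filter. Between Tfh and Th17 the libraries overlapped, since the Tfh libraries with 4.66 and 8.56 CPM sat within or below the Th17 range. The fitted difference was 1.81-fold higher in Tfh (log2 fold change 0.85 ± 0.44), and 0.44 on the log2 scale without Tfh replicate 1, the library with 37.5 CPM.

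Rasgrp4 was low in Th17 and similar in mean in Th1 and Tfh. Its level was 10.1, 16.6, 31.5, 29.1 and 12.0 CPM in the Th1 libraries (19.9 ± 9.85), 5.03, 4.87, 4.59, 9.14 and 6.62 CPM in the Th17 libraries (6.05 ± 1.90) and 18.4, 17.2, 15.4, 23.5 and 16.4 CPM in the Tfh libraries (18.2 ± 3.15). All Tfh and all Th1 libraries lay above all Th17 libraries, the closest being Th1 replicate 1 at 10.1 CPM against Th17 replicate 4 at 9.14 CPM. Rasgrp4 was 3.0-fold higher in Tfh than in Th17 (log2 fold change 1.58 ± 0.31) and 3.29-fold lower in Th17 than in Th1 (-1.72 ± 0.31). Tfh and Th1 overlapped (-0.14 ± 0.29), and the sign of this small difference turned to 0.08 without Th1 replicate 3. The Rasgrp4 transcript is 55.9% GC, and the libraries highest in it within Th1 and Th17, Th1 replicates 3 and 4 and Th17 replicate 4, are those with GC rank correlations of 0.68, 0.69 and 0.69. Tfh replicate 4, the highest Tfh library at 23.5 CPM, has 0.55. With counts corrected for GC per library the differences were 1.63 for Tfh against Th17 and -1.67 for Th17 against Th1 on the log2 scale.

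Rasgrp2 was, per kilobase of exon, the lowest member on average in Th17 and Tfh, and the lowest in Th1 apart from Rasgrp3. It reached 8.69, 4.93, 8.99, 8.12 and 4.43 CPM in the Th1 libraries (7.03 ± 2.18), 0.819, 1.38, 2.97, 3.11 and 4.97 CPM in the Th17 libraries (2.65 ± 1.63) and 6.77, 3.39, 3.92, 4.28 and 4.25 CPM in the Tfh libraries (4.52 ± 1.31). The ranges of all 3 conditions overlapped. The fitted differences were 2.62-fold lower in Th17 than in Th1 (log2 fold change -1.39 ± 0.40), 1.57-fold lower in Tfh than in Th1 (-0.65 ± 0.40) and 1.67-fold higher in Tfh than in Th17 (0.74 ± 0.41). Without Tfh replicate 1, the highest Tfh library, the last 2 were -0.82 and 0.56 on the log2 scale.

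**Figure D1:**
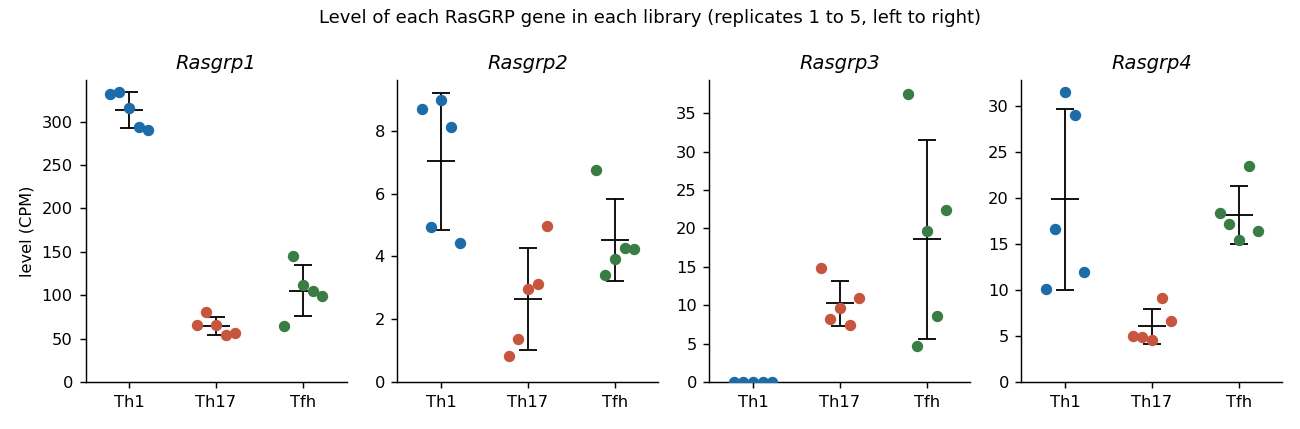
Level of each RasGRP gene in CPM (vertical axes, each starting at 0) in the 15 libraries, grouped by condition; points are libraries, horizontal bars and whiskers are the mean ± SD (n = 5). Rasgrp1 sits at 291 to 334 CPM in Th1 and at no more than 145 CPM elsewhere, Rasgrp3 is at 0 in all Th1 libraries and spreads from 4.66 to 37.5 CPM in Tfh, and Rasgrp4 is at no more than 9.14 CPM in Th17.

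Over the members, the libraries of the conditions did not overlap for 1 of 4 genes between Tfh and Th17 (Rasgrp4), for 2 of 4 between Tfh and Th1 (Rasgrp1 and Rasgrp3) and for 3 of 4 between Th17 and Th1 (Rasgrp1, Rasgrp3 and Rasgrp4). Of all genes tested, 14.5% did not overlap between Tfh and Th17, 34.3% between Tfh and Th1 and 28.8% between Th17 and Th1. The members were selected on these contrasts, so nothing is read from those counts. The comparisons share libraries and are set side by side only as values. The fitted log2 fold changes of all 4 genes were above 0 in Tfh against Th17, between 0.70 and 1.58, while the median over all genes tested was -0.01. Those of Rasgrp1 (0.70 ± 0.17, SE), Rasgrp2 (0.74 ± 0.41) and Rasgrp3 (0.85 ± 0.44) came from libraries that overlapped. Because of the selection, nothing is read from the shared sign either.

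**Figure D2:**
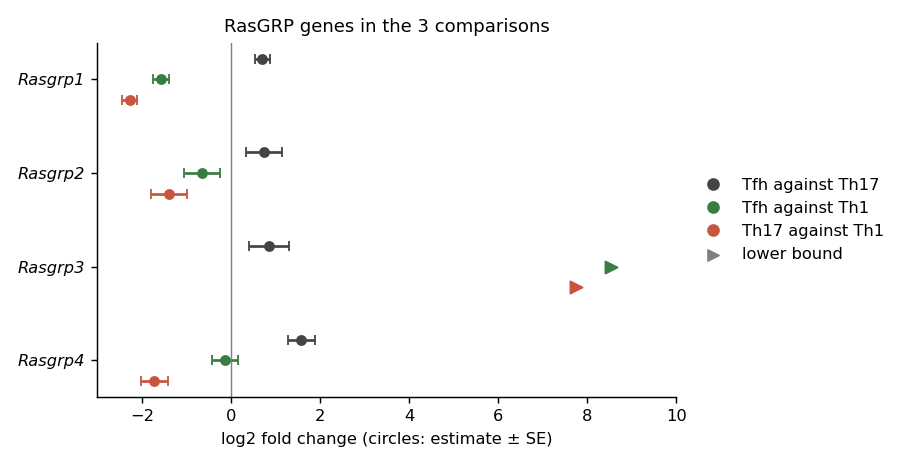
Log2 fold change of each RasGRP gene (horizontal axis) in the 3 comparisons; circles are fitted values with their SE and triangles are lower bounds against 3 counts over the Th1 group. Rasgrp1 lies at -2.28 for Th17 and -1.57 for Tfh against Th1, while Rasgrp3 is at or beyond 7.74 and 8.54.

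Compared per kilobase of exon, so that levels of different genes can be set against each other, the family as a whole was highest in Th1. The 4 genes summed to 59.6 ± 3.62 CPM per kilobase in Th1, 14.5 ± 1.53 in Th17 and 25.2 ± 3.10 in Tfh (SD, n = 5). The libraries ran from 54.1 to 62.7, from 12.7 to 16.7 and from 21.3 to 29.8 CPM per kilobase, so the 3 conditions did not overlap. Rasgrp1 made up most of that sum, with mean levels of 55.9 CPM per kilobase in Th1, 11.6 in Th17 and 18.8 in Tfh. Rasgrp4 stood at 3.12, 0.951 and 2.86 CPM per kilobase in Th1, Th17 and Tfh, Rasgrp3 at 0, 1.75 and 3.18, and Rasgrp2 at 0.568, 0.214 and 0.365.

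The mean make-up of the family differed between the conditions. Rasgrp1 accounted for 93.8 ± 2.7% of the summed per-kilobase level in Th1, 79.5 ± 4.5% in Th17 and 73.5 ± 12.3% in Tfh. Rasgrp3 accounted for 0% in Th1, 12.2 ± 3.32% in Th17 and 13.5 ± 10.7% in Tfh. Rasgrp4 accounted for 5.23 ± 2.55%, 6.77 ± 2.81% and 11.5 ± 2.71%, and Rasgrp2 for 0.948 ± 0.275%, 1.55 ± 1.03% and 1.5 ± 0.627%. The Rasgrp1 share in Tfh ran from 53.7% in replicate 1 to 87.3% in replicate 2, so the Tfh and Th17 shares overlapped. Those libraries were also the extremes for Rasgrp3, whose share was 30.2% in Tfh replicate 1 and 2.68% in Tfh replicate 2. Per kilobase, Rasgrp1 exceeded Rasgrp3 by 1.78-fold in Tfh replicate 1, 32.6-fold in replicate 2, 5.94-fold in replicate 3, 12.8-fold in replicate 4 and 4.61-fold in replicate 5, while the Th17 libraries ran from 4.60-fold to 10.2-fold. Without Tfh replicate 1 the mean Rasgrp1 share in Tfh was 78.4% and the Rasgrp3 share 9.33%. The exon length of Rasgrp2 (12384 bases) includes models with retained introns, and on coding length its share was 2.64% in Th1, 4.11% in Th17 and 3.94% in Tfh.

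**Figure D3:**
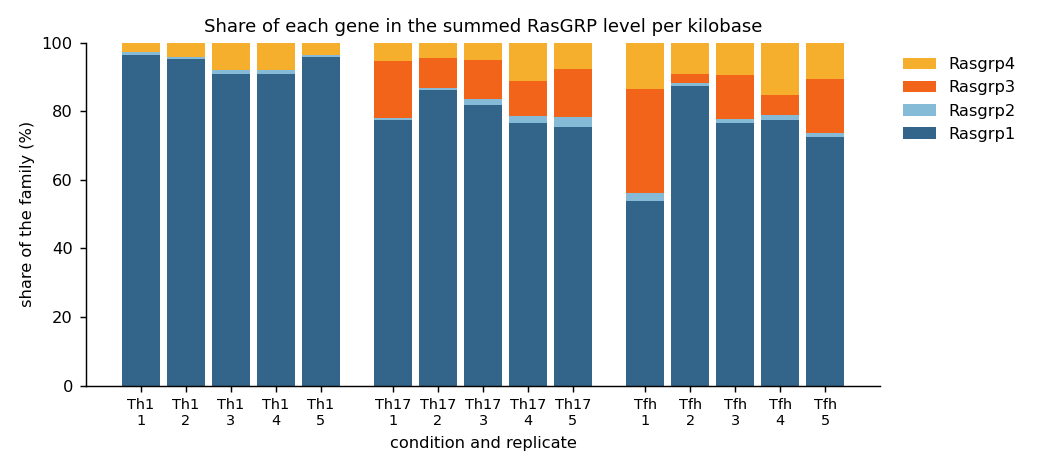
Share of each RasGRP gene (percent, vertical axis from 0 to 100) in the summed CPM per kilobase of the family, 1 bar per library, grouped by condition and replicate. Rasgrp3 is absent from the Th1 bars and takes from 2.68% to 30.2% of the Tfh bars, and Rasgrp1 takes most of each bar.

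Markers of other cell types that are known to use these genes were examined beside the levels. The T cell libraries held almost none of the B cell markers: Pax5 had 0 counts in all 15 libraries and Ms4a1 had 5, all of the latter in Th1, where Rasgrp3 was at 0. The 6 B cell genes summed to 0.140 to 2.37 CPM in Th1, 0.958 to 2.33 CPM in Th17 and 0 to 3.56 CPM in Tfh, and the sum was 0 CPM in Tfh replicate 1, the library with the most Rasgrp3. Blk alone among them was at 0 counts in Th1 and had 39 in Th17 and 51 in Tfh, and Cd79a had 19, 19 and 54. Cd79b went the other way, with 71 counts in Th1, 12 in Th17 and 2 in Tfh. Of the 7 mast cell genes, Mcpt4, Tpsb2, Cma1 and Fcer1a had 0 counts in all 15 libraries and Cpa3 had 3, while Kit, which T cells can also express, averaged 8.73 CPM over the Th1 libraries, 2.20 CPM over the Th17 and 2.44 CPM over the Tfh libraries. Hdc, also on the mast cell list, had 103 counts in Th1, 19 in Th17 and 39 in Tfh (means of 1.88, 0.388 and 0.735 CPM). The mast cell list summed to 9.09 to 13.0 CPM in Th1, 1.76 to 3.18 CPM in Th17 and 0.967 to 4.52 CPM in Tfh. Of the 6 platelet genes, Pf4, Ppbp, Gp1bb and Gp9 had 0 counts in all libraries, and the list summed to at most 1.85 CPM in a library. The 8 myeloid genes summed to at most 3.09 CPM in a library, and the erythroid list to at most 0.980 CPM. The 4 NK genes summed to 17.0 to 46.3 CPM in Th1, 0.234 to 1.98 CPM in Th17 and 0.398 to 2.51 CPM in Tfh, which was Klrk1 in Th1, with Ncr1 and Klra8 at 0 counts in all libraries. Cd8a and Cd8b1 summed to 7.29 to 26.1 CPM in Th1, 6.19 to 16 CPM in Th17 and 5.22 to 11.3 CPM in Tfh. Tfh replicate 1 was the highest Tfh library for the myeloid (3.09 CPM), NK (2.51 CPM) and platelet (1.35 CPM) lists. It was the lowest Tfh library for the B cell, mast cell and CD8 lists. Whether cells marked by the genes with counts have a part in any RasGRP level was not tested.

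Of 9 genes within 50000 bases of a member that passed the filter on low counts, Spred3 alone passed the test in any comparison. Each of Rasgrp1, Rasgrp3 and Rasgrp4 lies beside or over a gene of the Fam98 family. Fam98b lies 8453 bases from Rasgrp1 and had means of 69.9, 61.9 and 55.7 CPM over the Th1, Th17 and Tfh libraries. Fam98a lies 8032 bases from Rasgrp3 and stood at 41.8, 57.5 and 49.8 CPM. Fam98c overlaps Rasgrp4 on the other strand and stood at 4.97, 4.94 and 6.56 CPM. In the 9 tests of these genes no adjusted p passed 0.05, the smallest being 0.128 for Fam98a in Th17 against Th1 (edgeR quasi-likelihood test, Benjamini-Hochberg over all genes). No source used here says whether reads were assigned by strand, so part of the Rasgrp4 count could be reads of Fam98c or of the antisense gene Gm16282, and part of the Rasgrp2 count reads of Gm14965. Spred3, which encodes an inhibitor of Ras-Raf signalling 4868 bases from Rasgrp4, was 2.61-fold lower in Th17 than in Th1 (66.8 against 25.7 CPM, adjusted p = 2.56e-06). It was 1.6-fold higher in Tfh, at 41.1 CPM, than in Th17 (adjusted p = 0.00816) and 1.63-fold lower in Tfh than in Th1 (adjusted p = 0.00163).

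The genes whose log2 CPM over the 15 libraries was most like that of a member, among 9209 compared, differed for each member. For Rasgrp1 they were Itih5 (Pearson r = 0.991), Zmat3 (0.989) and S1pr1 (0.985), the receptor for sphingosine 1-phosphate, with 253 CPM in Th1, 113 CPM in Th17 and 153 CPM in Tfh. For Rasgrp3 they were Ints4 (0.987), Golm1 (0.987) and Kctd14 (0.985), for Rasgrp4 Gimap3 (0.955), Irf9 (0.944) and Actn1 (0.936), and for Rasgrp2 Sv2c (0.909), Ankrd39 (0.888) and Entpd1 (0.887). Golm1 had means of 17.6 (Th1), 136 (Th17) and 176 CPM (Tfh), and Gimap3 had 446, 243 and 467 CPM. The points share their 3 conditions, so such an r mostly restates the order of the condition means, and it is given as a description.

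Among the other Ras and Rap exchange factors, the Rap factor genes Rapgef4 and Rapgef6 rose in all 3 comparisons and the Ras factor gene Sos2 fell against Th1. Per kilobase, Rasgrp1 in Th1 (55.9 CPM) stood above Sos2 (11.4) and Sos1 (6.11), the exchange factors that Grb2 brings to the receptor complex. In Th17, Rasgrp1 (11.6 CPM per kilobase) was nearer to Sos2 (7.48) and Sos1 (4.48), and Rapgef6, a Rap exchange factor, stood at 16.1, 31.2 and 57.3 CPM per kilobase in Th1, Th17 and Tfh. Of the 9 factors tested among 10 listed, Rapgef4 and Rapgef6 rose and none fell in Tfh against Th17, where 6.8% of all genes tested were called higher and 9.98% lower. Rapgef6 rose 1.84-fold in that comparison (748 ± 147 against 407 ± 90.0 CPM, adjusted p = 0.00237). In Tfh against Th1, where 24.1% of all genes were called higher and 25.2% lower, Rapgef4 (3.98-fold) and Rapgef6 (3.56-fold) rose and Sos2 fell 1.39-fold. In Th17 against Th1, where 19.0% of genes were called higher and 17.8% lower, the same pair rose while Sos2 fell 1.52-fold (adjusted p = 0.00302) and Sos1 fell 1.36-fold (adjusted p = 0.046). The Sos1 call was lost (adjusted p 0.0533 to 0.084) without any 1 of 8 libraries (Th1 replicates 1, 2, 3 and 5, Th17 replicates 1, 4 and 5, Tfh replicate 4). It was also lost with no filter on low counts (adjusted p = 0.0548). Sos1 had an adjusted p of 0.0635 in Tfh against Th1 and of 0.874 in Tfh against Th17. In Tfh against Th1 it was called lower under 7 other settings (RLE factors, the strict filter, DESeq2, limma-voom, the replicate block, the GC correction, and the last 2 together), with adjusted p from 0.00211 to 0.048. In Tfh against Th1 the count of factors that fell went from 1 to 2 without any 1 of Th1 replicate 4, Th17 replicates 4 and 5 and Tfh replicates 2 and 5. In Tfh against Th17 the count that rose went from 2 to 1 without any 1 of Th17 replicates 3, 4 and 5 and Tfh replicates 2 and 3. The median log2 fold changes of the list were 0.25, 0.20 and -0.04 in Tfh against Th17, Tfh against Th1 and Th17 against Th1, where those of all genes tested were -0.01, -0.01 and 0.03.

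**Figure D4:**
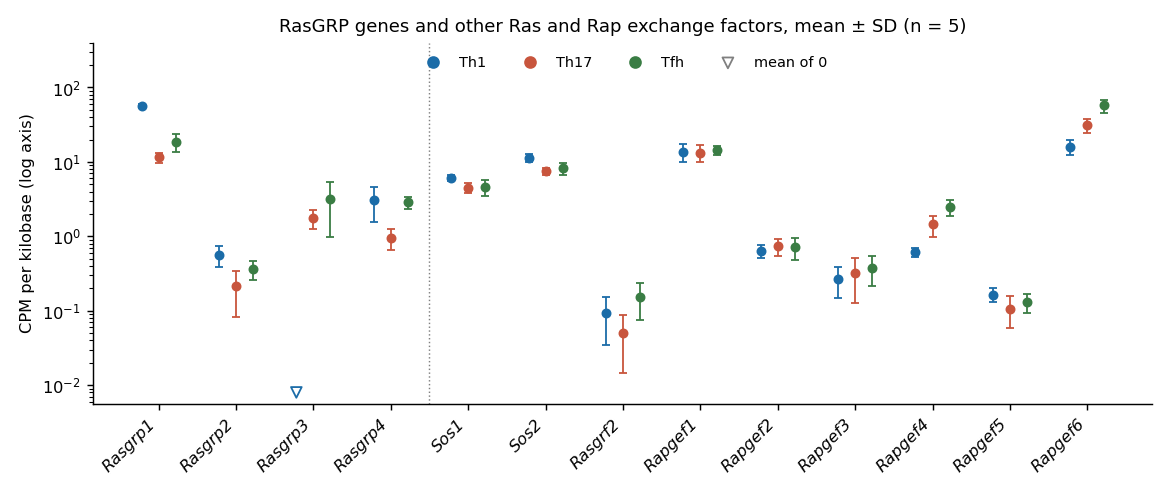
Mean level ± SD (n = 5) of the RasGRP genes, left of the dotted line, and of the 9 other exchange factors that passed the filter, in CPM per kilobase of exon on a log axis; the open triangle marks Rasgrp3 in Th1, at 0. Rasgrp1 in Th1 (55.9) and Rapgef6 in Tfh (57.3) are the highest points.

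Of the genes that make or remove diacylglycerol, the lipid that RasGRP1 binds, all that passed the test in Tfh against Th17 were higher in Tfh. Of 10 diacylglycerol kinases and phospholipase C gamma genes tested (12 listed), 5 rose and none fell in Tfh against Th17, 6 rose and 3 fell in Tfh against Th1, and 3 rose and 3 fell in Th17 against Th1. The median log2 fold changes were 0.57, 0.82 and 0.15. With 1 library left out, the count that rose in Tfh against Th17 ran from 4 to 5. The shares of all genes tested that rose and fell were 6.8% and 9.98% in Tfh against Th17, 24.1% and 25.2% in Tfh against Th1, and 19.0% and 17.8% in Th17 against Th1. Dgka and Dgkz encode the diacylglycerol kinases best known to restrain RasGRP1 in T cells. Dgka stood at 184 ± 20.6 CPM in Th1, 289 ± 25.7 CPM in Th17 and 481 ± 61.6 CPM in Tfh, and rose 1.67-fold in Tfh against Th17 (adjusted p = 0.000276) and 1.57-fold in Th17 against Th1 (adjusted p = 0.000263). Dgkz rose 1.68-fold in Tfh against Th17 (adjusted p = 0.0115) and 1.90-fold in Tfh against Th1 (adjusted p = 0.000613), and had an adjusted p of 0.50 in Th17 against Th1. With the GC correction the Dgkz difference in Th17 against Th1 was called (log2 fold change 0.22, adjusted p = 0.0362, and 0.0246 with the replicate block as well). Plcg1, which encodes the phospholipase C gamma of T cells, had means of 72.0 (Th1), 122 (Th17) and 193 CPM (Tfh), and Plcg2 fell 7.61-fold in Tfh against Th1. Dgkh fell 11.6-fold in Tfh and 26.6-fold in Th17 against Th1, from 51.2 CPM. Dgkk had 335 counts in Th1 and none in either of the other conditions, at least 76.2-fold lower in Tfh and at least 88.5-fold lower in Th17 against 3 counts over the group. Dgkk passed the filter on low counts only through its Th1 libraries, so its difference follows in part from the filter. It is among the 3 genes counted as fallen in each comparison with Th1.

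Among the other kinases that diacylglycerol recruits, Prkcq rose and Prkca fell in both comparisons with Th1. Of 8 tested (10 listed), 2 rose and none fell in Tfh against Th17, 3 rose and 4 fell in Tfh against Th1, and 1 rose and 3 fell in Th17 against Th1, with median log2 fold changes of 0.26, -0.25 and -0.34. Over all genes tested, 6.8% rose and 9.98% fell in Tfh against Th17. The shares were 24.1% and 25.2% in Tfh against Th1, and 19.0% and 17.8% in Th17 against Th1. Prkcq encodes protein kinase C theta, the isoform of the T cell synapse that can phosphorylate RasGRP1, and stood at 183 ± 10.02 CPM in Th1, 277 ± 38.8 CPM in Th17 and 441 ± 44.4 CPM in Tfh. It rose 1.59-fold in Tfh against Th17 (adjusted p = 0.000512) and 1.52-fold in Th17 against Th1 (adjusted p = 0.00043). Prkca fell 6.27-fold in Tfh and 5.39-fold in Th17 against Th1, from 309 ± 36.4 CPM. Prkch was highest in Th1 (522 CPM), then Tfh (351 CPM) and Th17 (262 CPM), the same order of means as Rasgrp1. Without Tfh replicate 3 the count that fell in Tfh against Th1 was 2, and without Th1 replicate 3 the count that rose in Th17 against Th1 was 2.

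Upstream, 2 of 10 T cell receptor adaptors and kinases rose in Tfh against Th17 (Zap70 and Vav1) and Themis fell, although Themis lost its call without any 1 of Th17 replicates 1 and 2 and Tfh replicates 1 and 4, which left 0 that fell. Against Th1, 6 rose and 3 fell in Tfh, and 5 rose and 3 fell in Th17. Among all genes tested, 6.8% rose and 9.98% fell in Tfh against Th17. The shares were 24.1% and 25.2% in Tfh against Th1, and 19.0% and 17.8% in Th17 against Th1. The median log2 fold changes were 0.17 for Tfh against Th17, 0.73 for Tfh against Th1 and 0.52 for Th17 against Th1. Zap70, the kinase that phosphorylates LAT, rose 1.76-fold in Tfh against Th17 (652 ± 102 against 372 ± 61.0 CPM, adjusted p = 0.00368). Themis, an adaptor of developing T cells, fell 13.8-fold in Tfh and 7.82-fold in Th17 against Th1, from 561 ± 199 CPM.

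Among the GTPases and kinases downstream, Ksr1 and Rras2 fell in both comparisons with Th1. Of 14 Ras and Raf-MEK-ERK genes tested (15 listed), none rose and 1 fell in Tfh against Th17 (Map2k1, 1.39-fold, adjusted p = 0.00944), 2 rose and 5 fell in Tfh against Th1, and 1 rose and 5 fell in Th17 against Th1. The median log2 fold changes were -0.05, -0.04 and -0.01. For this list and the next, the shares of all genes tested that rose and fell were 6.8% and 9.98% in Tfh against Th17. They were 24.1% and 25.2% in Tfh against Th1, and 19.0% and 17.8% in Th17 against Th1. The scaffold gene Ksr1 fell 3.52-fold in Tfh and 2.96-fold in Th17, and Rras2, a Ras-related GTPase, fell 2.83-fold and 2.40-fold. The count that rose in Th17 against Th1 was 2 without any 1 of Th1 replicates 1 and 3 and Th17 replicate 4. Genes that oppose Ras were split as well. Of 10 Ras GTPase-activating protein genes, 3 rose and none fell in Tfh against Th17. With 1 library left out, the count that rose there ran from 2 to 4. In both comparisons with Th1 the counts were the same, 3 that rose (Rasa1, Rasa3 and Rasal3) and 4 that fell. The median log2 fold changes were 0.34 in Tfh against Th17, -0.64 in Tfh against Th1 and -0.67 in Th17 against Th1. Rasa3 rose from 14.2 ± 2.99 CPM in Th1 to 81.4 ± 15.3 in Th17 and 153 ± 14.1 in Tfh, 10.7-fold for Tfh against Th1 (adjusted p = 1.52e-11) and 1.88-fold for Tfh against Th17 (adjusted p = 0.00058).

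Genes that ERK signalling is known to induce, and its feedback inhibitors, rose and fell in near equal numbers against Th1. Of 20 tested, 9 rose and 7 fell in Tfh against Th1, 9 rose and 7 fell in Th17 against Th1, and 2 rose and 3 fell in Tfh against Th17, with median log2 fold changes of 0.30, 0.26 and -0.10. Over all genes tested, 24.1% rose and 25.2% fell in Tfh against Th1. The shares were 19.0% and 17.8% in Th17 against Th1, and 6.8% and 9.98% in Tfh against Th17. Fos rose 3.72-fold in Tfh against Th1 and 1.67-fold in Tfh against Th17 (adjusted p = 0.024). The phosphatase gene Dusp6 rose 3.72-fold in Tfh against Th1, while Dusp5 fell 11.4-fold and the ETS factor gene Etv5 fell 7.15-fold. In Th17 against Th1, Phlda1 rose 5.17-fold and Spry1, a feedback inhibitor, 2.82-fold, and Etv5 fell 10.3-fold and Dusp5 9.36-fold. Ier3 fell 2.90-fold and Phlda1 2.54-fold in Tfh against Th17, and Egr2 rose 1.65-fold (adjusted p = 0.0199). The count that rose in Tfh against Th17 was 1 without any 1 of Th17 replicates 1 and 3 and Tfh replicate 2. Fos had adjusted p = 0.0606 without Th17 replicate 3, 0.0504 without Th17 replicate 4 and 0.0667 without Tfh replicate 2, and Egr2 had 0.0554 without Th17 replicate 1 and 0.0509 without Th17 replicate 3.

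On the branch that RasGRP2 serves, every gene of Rap1 and integrin activation that passed the test in Tfh against Th17 was higher in Tfh. Of 16 tested (17 listed), 6 rose and none fell in Tfh against Th17, 9 rose and 2 fell in Tfh against Th1, and 6 rose and 2 fell in Th17 against Th1, with median log2 fold changes of 0.39, 0.61 and 0.25. Over all genes tested, 6.8% rose and 9.98% fell in the first of these comparisons, 24.1% and 25.2% in the second and 19.0% and 17.8% in the third. Rassf5, which encodes the Rap1 effector RAPL, stood at 147 ± 12.7 CPM in Th1, 362 ± 18.8 CPM in Th17 and 485 ± 14.2 CPM in Tfh, 3.31-fold higher in Tfh than in Th1 (adjusted p = 5.68e-11). Tln1, which encodes the integrin activator talin, rose 2.66-fold in Tfh and 1.90-fold in Th17 against Th1. Skap1 rose 1.65-fold and the kinase gene Stk4 1.45-fold in Tfh against Th17. Sipa1l1, a GTPase activator for Rap, fell 2.93-fold in Tfh and 2.79-fold in Th17 against Th1, from 160 CPM. With 1 library left out, the count that rose in Tfh against Th17 ran from 4 to 7. The count that fell in Tfh against Th1 then ran from 1 to 3. It was 1 without any 1 of Th1 replicates 3, 4 and 5 and Tfh replicates 1, 2 and 3. Rap1b itself stood at 64.9 ± 26.6 (Th1), 123 ± 43.9 (Th17) and 97.5 ± 32.8 CPM (Tfh), with adjusted p = 0.0244 in Th17 against Th1. That call was lost, at adjusted p 0.0562 to 0.0784, without any 1 of Th1 replicates 3 and 4 and Th17 replicates 1, 2 and 3.

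Over all 8 lists, 97 of 104 genes were tested. The lists were chosen with earlier results of these data known, so their counts are no independent evidence of a shift of the pathway. In Tfh against Th17, 5 lists had no gene that fell and the cascade list none that rose (edgeR); DESeq2 and limma-voom also called 0 in each of those, and at an unadjusted p under 0.05 there was 1 in each of the GTPase-activating protein and diacylglycerol kinase lists (Rasa4 and Plcg2) and 0 in the other 4. Of the 97 genes, 22 rose, 5 fell and 70 did not pass the test in Tfh against Th17. Their median log2 fold change was 0.16, where 6.8% of all genes tested rose and 9.98% fell. With 1 library left out, 17 to 25 of the list genes rose and 4 to 6 fell in that comparison. Over all genes tested, 640 to 995 rose and 973 to 1398 fell in those fits. Against Th1, 40 rose and 29 fell in Tfh (median 0.20, with 24.1% of all genes tested higher and 25.2% lower), and 30 rose and 29 fell in Th17 (median 0.10, with 19.0% of all genes higher and 17.8% lower).

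**Figure D5:**
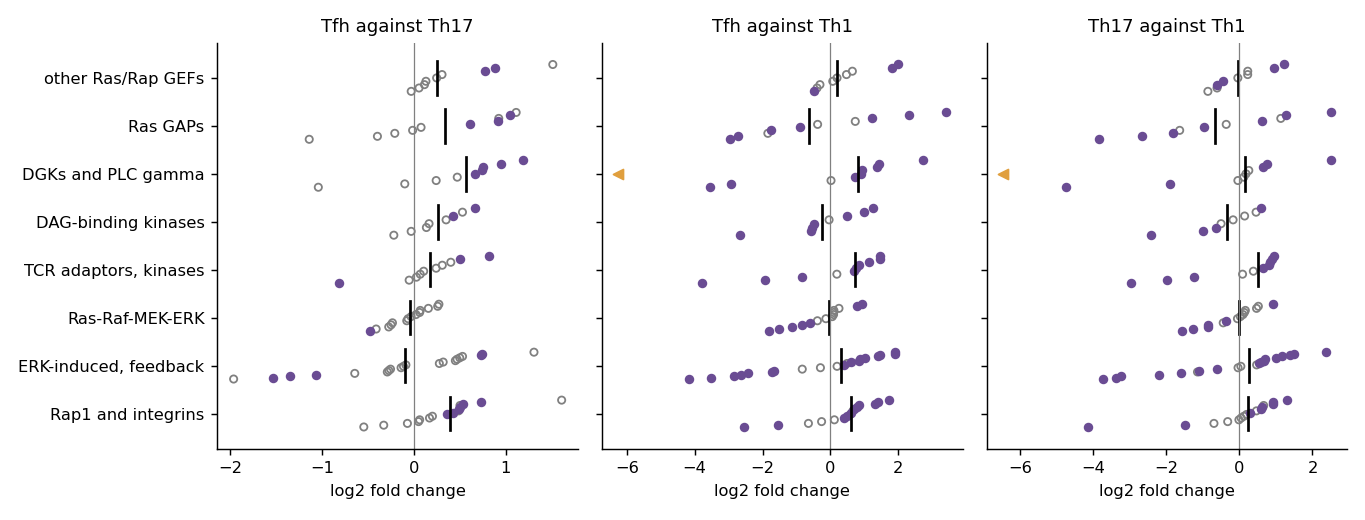
Log2 fold change (horizontal axis) of each tested gene of the 8 pathway lists in the 3 comparisons; filled purple circles passed the test at an adjusted p under 0.05, open grey circles did not, black bars are list medians and orange triangles mark Dgkk, drawn at its bound against 3 counts. Most filled circles in Tfh against Th17 lie right of 0 (22 against 5), and in both comparisons with Th1 filled circles lie on both sides. The lists were chosen with earlier results of these data known.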

How the data were processed

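RNA-seq libraries of sorted mouse CD4 T cells (Lexogen SENSE mRNA-Seq V2 kit, 100 ng RNA, per the labels' protocols) were deposited by the authors as whole-number counts per gene, 1 column per library. STAR 2.7.2b, featureCounts 1.6.4 and mm10 are named in the submitters' processing notes, while no source used here gives the gene annotation, strand setting or treatment of multi-mapped reads. Rows carry Entrez IDs, of which 25275 were named from RefSeq (GRCm38.p6), 18 from GENCODE and 1886 not at all, and named genes held 98.2% of counts. Genes were filtered with filterByExpr (12591 kept, 5472 with counts removed), scaled by TMM and tested with edgeR 4.0.16 (quasi-likelihood, robust, 15 libraries in 1 model) in R 4.3.3, with Benjamini-Hochberg adjustment over all genes and a threshold of 0.05. The script was tested on simulated data. CPM values use TMM-scaled sizes, and levels per kilobase use the exon union of GENCODE M21. Precision is limited by depth, and counting limits cover counting error only, since no molecular identifiers are recorded.

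The members and the 8 lists were chosen with earlier results of these data known. Named in each comparison were the 4 members, up to 2 genes per list and direction with the largest change among those that passed the test without overlap of libraries and reached 10 CPM, and Sos1, Dgka, Dgkz, Prkcq and Rap1b. Also named were the 3 genes most like each member and its neighbours on the chromosome. Other list genes (Rapgef4 in Tfh against Th17 and in Th17 against Th1, Themis in Tfh against Th17, Rasa1 and Rasal3 against Th1, and Dgkk) were chosen after their values were seen. Some genes that this rule names are not reported here. Replicates of 1 condition differed by more than sampling noise (chi-square per gene of at least 9.40 in every pair). Alternatives were RLE factors, library size only, other filters, DESeq2 1.42.0, limma 3.58.1 (voom), 10 libraries per fit, a replicate block, a GC correction, other gene lengths and leaving out each library.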

Additional observations from a re-analysis of the deposited data

Results flagged for a closer look

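In 156 groups of 5 libraries examined (each member and each named pathway gene in each condition), 6 held a library far from the other 4, and chance flags about 1 in 20 groups. Rasgrp2 in Tfh reached 6.77 CPM in replicate 1, the library that stood apart on the second principal component, where the next library had 4.28 CPM. Prkcq in Th1 reached 200.3 CPM in 1 library (next 181 CPM), and Sos2 in Th1 reached 119 CPM (next 94.5 CPM). Rras2 in Th17 reached 63.7 CPM (next 44.1 CPM), and Prkca in Tfh 67.4 CPM (next 48.4 CPM). Egr2 in Tfh was as low as 66.0 CPM in 1 library, with the nearest at 80.9 CPM.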

How the results depend on the processing

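Rasgrp1, Rasgrp2 and Rasgrp3 kept the direction of each fold change under every alternative run, as did Rasgrp4 apart from Tfh against Th1 (-0.30 to 0.08 over fits that left out 1 library). The strict filter removed Rasgrp2, which then has no value. The Rasgrp3 bound for Th17 against Th1 ran from 7.05 to 7.80 on the log2 scale with 1 library left out. On coding length the shares of Rasgrp1 were 90.7% in Th1 and 74.0% in Th17, and those of Rasgrp2 2.64%, 4.11% and 3.94% in Th1, Th17 and Tfh. As shares of raw counts Rasgrp2 had 2.06%, 3.28% and 3.19%. Replicate numbers did not pair the libraries throughout: 7 of 15 same-numbered pairs had correlated deviations over 0.1 (median 0.06), and 3 libraries correlated best with their own number. Replicate 4 libraries correlated at 0.57 (Th1 and Th17), 0.44 (Th1 and Tfh) and 0.46 (Th17 and Tfh). Th1 replicate 3 and Th17 replicate 4, of unlike number, reached 0.61. Such correlations cannot show whether a number marks a shared animal or day. With a replicate block, 29 pathway genes rose and 8 fell in Tfh against Th17 in place of 22 and 5. Over all genes, 1240 then rose and 1701 fell in place of 856 and 1257. With the block and a GC correction, 36 rose and 9 fell in place of 22 and 5, and over all genes 1980 rose and 2025 fell in place of 856 and 1257; with the GC correction alone 1749 rose. The cause was not tested. For named pathway genes, 803 of the other fits gave the same call, 1 lost it and 12 gained it, and of the fits with 1 library left out 1206 gave the same call, 18 lost it and 6 gained it, with none reversed. Those that gained it were Sos1 and Rap1b in Tfh against Th1 and Dgkz in Th17 against Th1. Depth sets the Rasgrp3 bounds, through the 3 counts over the Th1 libraries.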
